A study of Mus musculus with 8 samples.

Results

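The basement membrane is the thin sheet of matrix on which endothelial cells rest and which wraps cardiomyocytes, mural cells and nerve fibres. The 10 genes described here encode the 6 collagen IV chains (Col4a1 to Col4a6), the laminin chains Lama2, Lamb2 and Lamc1, and the linker nidogen (Nid1). They were chosen by name, with earlier results of these data known. All 10 were found among the 18193 genes that the arrays measured, read by 19 probesets, the groups of short probes that bind 1 transcript. Total RNA of whole, unstressed hearts was read on Affymetrix expression arrays, with 1 heart to an array. There were 4 arrays from mice without the coactivator SRC-2, the product of Ncoa2 (SRC-2 KO), and 4 from wild type (WT) mice. All mice were male, of the mixed strain given as C57B/6Jx129Sv, fed ad libitum and 10 to 12 weeks old by the labels, and the methods call the mice of the study age-matched littermates. The KO is germline and so not limited to a cell type.

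Collagen IV chains wind in trimers that join end to end into a network. The trimer of the Col4a1 and Col4a2 chains is found in nearly every basement membrane, vessels and muscle included. Col4a3, Col4a4 and Col4a5 encode the chains of a separate trimer, best known from the filter of the kidney and from Alport syndrome, and Col4a5 and Col4a6 chains form another, found around smooth muscle. Laminins form a second sheet that binds integrins and dystroglycan on the cell, and in muscle the Lama2 chain pairs with Lamb1 or Lamb2 and with Lamc1. Nidogen bridges the laminin and the collagen sheets.

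The collagen IV genes lie in head-to-head pairs: Col4a1 beside Col4a2 on chromosome 8, Col4a3 beside Col4a4 on chromosome 1, and Col4a5 beside Col4a6 on chromosome X. Promoter windows of 300 bases, 250 before and 50 after the annotated start, were taken from RefSeq on GRCm38.p6 for the 8 members that matched, with Col4a3 and Lamc1 named only. The windows of Col4a2 (chr8:11312555-11312854, plus strand) and Col4a1 (chr8:11312777-11313076, minus strand) are shown because the starts lie 21 bases apart and the windows share 78 bases, in capitals, which each window reads on its own strand.
Col4a2: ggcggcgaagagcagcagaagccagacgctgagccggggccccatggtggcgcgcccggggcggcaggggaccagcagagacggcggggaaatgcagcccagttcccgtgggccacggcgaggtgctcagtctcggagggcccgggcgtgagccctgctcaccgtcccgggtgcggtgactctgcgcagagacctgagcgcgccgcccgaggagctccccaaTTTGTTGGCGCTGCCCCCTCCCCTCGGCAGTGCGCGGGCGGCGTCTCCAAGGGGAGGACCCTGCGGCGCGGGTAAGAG
Col4a1: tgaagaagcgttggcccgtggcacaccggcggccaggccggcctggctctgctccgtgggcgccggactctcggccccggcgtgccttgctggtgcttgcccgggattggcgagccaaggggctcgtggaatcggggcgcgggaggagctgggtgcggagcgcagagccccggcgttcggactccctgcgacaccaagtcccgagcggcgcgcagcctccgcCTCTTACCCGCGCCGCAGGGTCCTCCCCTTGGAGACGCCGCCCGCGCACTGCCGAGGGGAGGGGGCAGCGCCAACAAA

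Both windows were rich in G and C, 73.7% for Col4a2 and 74.0% for Col4a1, against a median of 52.7% over 32851 promoter windows of the same length. On either strand, CCAAT occurred once in each, and GGGCGG, the letters bound by Sp1-type factors, 3 times in Col4a2 and 1 time in Col4a1. Of all windows, 37.4% held CCAAT and 35.7% held GGGCGG. The window of Col4a4 (chr1:82586800-82587099, minus strand) is shown because Col4a4 had the smallest p of the members, with the 1 match to AGGTCA, a nuclear receptor half-site, in capitals.
Col4a4: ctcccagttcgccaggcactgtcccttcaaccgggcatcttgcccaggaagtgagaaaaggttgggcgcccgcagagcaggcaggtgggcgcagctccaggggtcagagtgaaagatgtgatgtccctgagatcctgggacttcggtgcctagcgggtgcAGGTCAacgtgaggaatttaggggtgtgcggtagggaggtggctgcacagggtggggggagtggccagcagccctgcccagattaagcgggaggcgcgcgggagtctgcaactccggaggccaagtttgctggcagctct

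This window was 63.3% G and C and held neither CCAAT nor GGGCGG. The half-site letters were found in 16.3% of all windows, searched on both strands. Col4a5 and Col4a6 start 1343 bases apart, so that their windows do not overlap.

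The signals are linear intensities, and each array had been scaled to the same trimmed mean of 500. The median signal was 75.6 to 83.2 in KO arrays and 77.0 to 87.3 in WT arrays, and signals under 50, close to background, made up 36.9% to 40.7% of each array. The disrupted gene, Ncoa2, read 237.0, 259.6, 267.4 and 235.1 in KO hearts and 1660.3, 2115.3, 1826.6 and 2134.1 in WT hearts. Each gene was read by its brightest probeset and tested on log2 signals in limma, and called where the Benjamini-Hochberg adjusted p over the whole table was under 0.05. The common-variance fit, the main one, draws the spread of each gene toward 1 value for all genes. The trended fit draws it toward that of genes of similar signal. Differences are KO minus WT on the log2 scale, with the standard error (SE) or 95% interval of the common-variance fit. The labels give 4 hearts a genotype without naming litters or dates, so the p-values measure the spread between these hearts.

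Every one of the 10 members averaged lower in SRC-2 KO hearts than in WT hearts. Their median difference was -0.51, against -0.03 over all genes, of which 53% were below 0. Under median centring of the arrays, which moved the median of all genes up by 0.15, 9 of 10 stayed below 0, the exception being Lamb2 at 0.09. At the adjusted threshold, no member was called in the common-variance fit, in which 0.0165% of all genes were called lower, and 5 had an unadjusted p under 0.05 with the lower signal in KO hearts, against 6.12% of all genes. In the trended fit 1 member, Col4a4, was called lower, against 0.258% of all genes, and 8 had an unadjusted p under 0.05, against 7.28%. In 2 members, Col4a4 and Col4a6, all 4 KO hearts were below all 4 WT hearts, as were 3.72% of all genes. Since the members were chosen with earlier results of these data known, these shares are not those of a set picked blind.

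Col4a1, the major chain of the common collagen IV trimer, read 8433.5, 8417.0, 6767.4 and 11622.6 in KO hearts, against 11402.6, 12304.2, 12624.0 and 16342.2 in WT hearts. The groups overlapped only through KO replicate 4, which lay just above the lowest WT heart. The means were 8810 ± 2031 in KO hearts and 13168 ± 2178 in WT hearts (SD, n = 4 each). The log2 difference was -0.59 (SE 0.20, 95% interval -1.05 to -0.13), with limma adjusted p of 0.421 common-variance and 0.13 trended. In RNA of a whole heart, fewer cells of a type and less RNA per cell cannot be told apart.

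Col4a2, the partner chain, read 5214.4, 6154.6, 4375.1 and 6646.0 in KO hearts and 6903.6, 6423.5, 7139.8 and 8591.7 in WT hearts. Again KO replicate 4 was the only KO heart within the WT range. The log2 difference was -0.39 (SE 0.17, interval -0.78 to 0.01), with limma adjusted p of 0.503 and 0.233 in the common-variance and the trended fit. The change of Col4a2 minus that of Col4a1, fitted within each array, was 0.21 (interval -0.23 to 0.65, adjusted p 0.444 common-variance and 0.489 trended), so a difference between the partners was not found, and neither sign of it lay outside the interval.

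Col4a4 had the smallest p of the members. It read 193.4, 215.3, 104.8 and 255.8 in KO hearts, against 394.1, 563.7, 556.0 and 510.1 in WT hearts, and the groups did not overlap. The means were 192 ± 63.8 in KO hearts and 506 ± 78.3 in WT hearts (SD, n = 4 each), and the KO level was 0.365 of the WT level as a ratio of geometric means. The log2 difference was -1.46 (SE 0.29, interval -2.13 to -0.78), with limma adjusted p of 0.294 common-variance and 0.0367 trended. The trended call held in 2 of the 8 fits that left out 1 heart, those without KO replicate 4 (adjusted p 0.0118) and without KO replicate 3 (0.0431), and was lost in the other 6, up to 0.136.

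Col4a3, the neighbour of Col4a4, was close to background in KO hearts. It read 12.0, 65.8, 33.1 and 134.5 in KO hearts and 95.4, 211.0, 158.0 and 202.1 in WT hearts. KO replicate 4 overlapped the WT range. The log2 difference was -1.88 (SE 0.72, interval -3.56 to -0.20), with limma adjusted p of 0.467 common-variance and 0.233 trended. With signals under 50 set to 50 it was -1.22 (adjusted p 0.331 common-variance and 0.329 trended), so its size rests on values near background. Fitted within each array, the change of Col4a4 minus that of Col4a3 was 0.42 (interval -1.49 to 2.34, adjusted p 0.678 common-variance and 0.651 trended) and turned to -0.24 with signals under 50 set to 50, so no direction of a gap was found. In these fits 3.74% and 0.0275% of all genes were called.

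Col4a5 and Col4a6 are the X-linked pair, and the signal of Col4a6 was close to background. Col4a5 read 2669.8, 2511.8, 1849.2 and 2814.5 in KO hearts and 2754.7, 4095.2, 2723.4 and 3686.2 in WT hearts, with KO replicate 4 within the WT range. Its log2 difference was -0.42 (SE 0.20, interval -0.90 to 0.05), with limma adjusted p of 0.532 and 0.27. Col4a6 read 9.9, 47.7, 4.7 and 31.8 in KO hearts, all under 50, and 52.9, 188.5, 67.9 and 82.2 in WT hearts. The groups did not overlap, and the log2 difference was -2.40 (SE 0.79, limma adjusted p 0.421 common-variance and 0.205 trended). It was -0.79 with signals under 50 set to 50 (adjusted p 0.5 common-variance) and -1.59 with the mean of both its probesets, so the deposited signals do not fix its size.

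**Figure D1:**
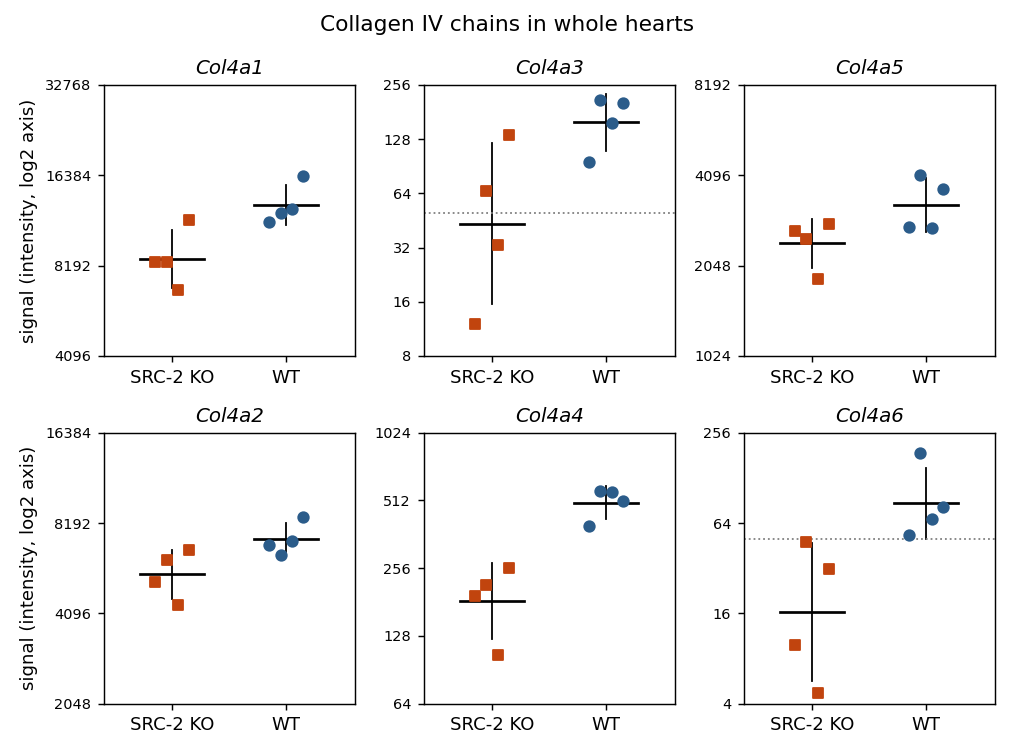
Signal of the 6 collagen IV chains in each heart, on a log2 axis of linear intensity; squares are KO hearts (left) and circles WT hearts (right), 4 each, lines are means of log2 signals, bars are 1 SD and the dotted line marks a signal of 50. In Col4a4 and Col4a6 every KO heart lies below every WT heart, and in the other 4 chains the groups overlap.

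The members were next set against the common pair, since a call of Col4a4 and not of Col4a1 does not show unequal changes. For each gene, the log2 signal minus that of Col4a1 was compared between genotypes over all genes. The change of Col4a4 minus that of Col4a1 was -0.86 (interval -1.43 to -0.29), called in the trended fit (limma adjusted p 0.0464) along with 14.9% of all genes. In the common-variance fit the adjusted p was 0.157 and 0% of all genes were called. The trended call held in 1 of the 8 fits that left out 1 heart, the one without KO replicate 4 (0.0202), and in the others the adjusted p was 0.0532 to 0.131. Relative to Col4a2 the gap of Col4a4 was -1.07 (interval -1.63 to -0.51), with adjusted p of 0.321 common-variance and 0.0702 trended, where 0% and 0.434% of all genes were called, and 0.0193 trended without KO replicate 4. In both ratios the 4 KO hearts lay below the 4 WT hearts.

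The other minor chains were not called against either partner. Col4a3 minus Col4a1 was -1.29 (interval -2.69 to 0.12, limma adjusted p 0.183 common-variance and 0.107 trended), or -0.62 with signals under 50 set to 50. Col4a6 minus Col4a1 was -1.81 as deposited (adjusted p 0.157 and 0.0802), but -0.20 with that floor (0.566 and 0.559). Against Col4a2 the gap of Col4a3 was -1.49 as deposited and -0.83 with the floor, and that of Col4a6 was -2.02 and -0.40. Set against its own neighbour Col4a5, Col4a6 had a gap of -1.98 as deposited and -0.36 with the floor (limma adjusted p 0.392 and 0.314, common-variance). Against Col4a5, 0% of all genes were called with the common variance and 0.264% with the trend. All KO signals of Col4a6 are under 50, so none of its gaps has a settled size. A gap of Col4a5 was not found: it was 0.17 to Col4a1 (interval -0.35 to 0.68) and -0.04 to Col4a2 (interval -0.54 to 0.47).

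Among the non-collagen members the laminin chains differed least. Lama2, the alpha chain of muscle laminin, read 2572.3, 2588.3, 2442.0 and 2906.6 in KO hearts, against 2369.1, 3361.0, 3011.1 and 3186.8 in WT hearts. The lowest heart of all was WT replicate 1. Lamb2, a beta chain, read 1943.9, 2283.0, 2065.1 and 2088.5 in KO hearts and 2024.5, 2045.4, 2511.9 and 2196.6 in WT hearts, and the groups were interleaved. The log2 differences were -0.17 for Lama2 (interval -0.50 to 0.15) and -0.06 for Lamb2 (interval -0.33 to 0.21), with limma adjusted p of 0.697 and 0.864 in the common-variance fit. Lamc1, the gamma chain most laminins share, read 1433.2, 1721.0, 1534.6 and 2167.4 in KO hearts and 1895.8, 2260.5, 1908.8 and 2453.7 in WT hearts. Only KO replicate 4 reached the WT range, and the log2 difference was -0.32 (SE 0.17, interval -0.72 to 0.07, adjusted p 0.56 common-variance and 0.333 trended).

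Nid1, the bridge between laminin and collagen IV, read 2537.6, 2401.1, 2634.4 and 4201.8 in KO hearts, against 4005.6, 5647.2, 3766.3 and 5800.6 in WT hearts. KO replicate 4 stood apart from the other KO hearts and lay between the 2 lower WT hearts and the 2 higher ones. The means were 2944 ± 844 in KO hearts and 4805 ± 1067 in WT hearts (SD, n = 4 each). The log2 difference was -0.72 (SE 0.24, interval -1.28 to -0.16), with limma adjusted p of 0.422 common-variance and 0.124 trended. Without KO replicate 4 it was -0.90 and the trended adjusted p 0.0131.

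**Figure D2:**
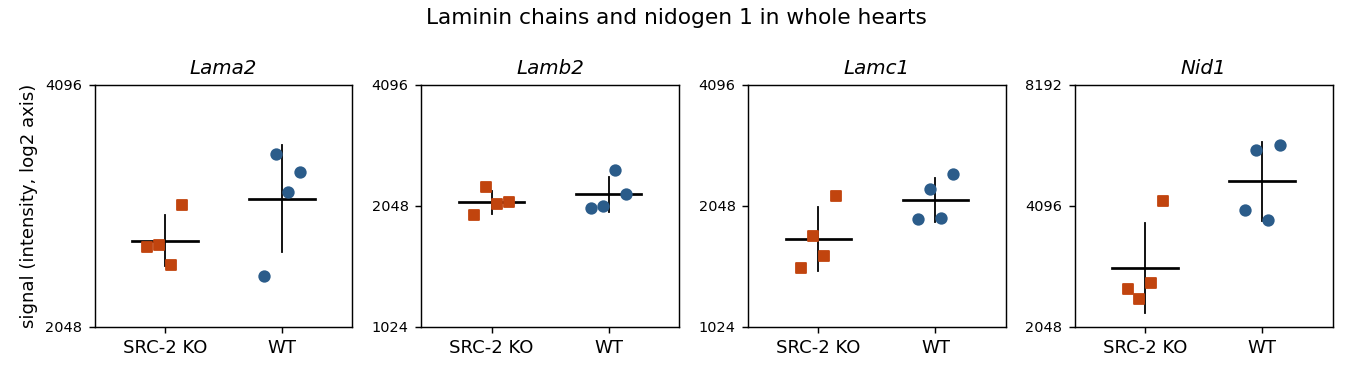
Signal of Lama2, Lamb2, Lamc1 and Nid1 in each heart, on a log2 axis of linear intensity; squares are KO hearts (left) and circles WT hearts (right), 4 each, lines are means of log2 signals and bars are 1 SD. The groups overlap in all 4 genes, and in Lamc1 and Nid1 the KO heart that reaches the WT range is KO replicate 4.

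Some hearts held the same place within their genotype for most members. KO replicate 4 was the highest KO heart for 8 of the 10 members, and KO replicate 3 the lowest for 6. Among WT hearts, WT replicate 1 was the lowest for 7 members, while the highest was WT replicate 2 for 5 and WT replicate 4 for 4. These places were not counted over all genes. Leaving out KO replicate 4 took the trended calls to 3 of 10 members, Col4a1 (adjusted p 0.019), Col4a4 (0.0118) and Nid1 (0.0131), but it also took those of all genes to 218 lower and 104 higher, against 47 and 22 with all 8 hearts.

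Several members were read by more than 1 probeset, and all 19 probesets averaged lower in KO hearts. In 6 of the 19, all 4 KO hearts lay below all 4 WT hearts, against 3.29% of the 34945 probesets with 1 gene symbol. Tested as features of their own, 2 of the 19 were called lower in the trended fit, against 0.143% of all probesets, and these were 1 probeset of Nid1 and the brightest of Col4a4 (limma adjusted p 0.0407, or 0.388 in the common-variance fit). Without 1 heart, this Col4a4 call again held in 2 of 8 trended fits (0.0129 to 0.15).

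The second brightest Nid1 probeset separated the genotypes clearly. It read 302.8, 314.5, 263.0 and 331.6 in KO hearts and 917.4, 856.5, 707.6 and 688.9 in WT hearts, and its KO replicate 4 was close to the other KO hearts. The means were 303 ± 29.1 in KO hearts and 793 ± 112 in WT hearts (SD, n = 4 each). The log2 difference was -1.38 (SE 0.15, limma adjusted p over all probesets 0.00306 trended and 0.0896 common-variance, exact permutation p 0.0286, the smallest that 4 against 4 allows). It stayed under 0.05 in all 8 trended fits without 1 heart (0.0032 to 0.0236) and after quantile normalization (0.0073), but not with signals under 50 set to 50 (0.0654). That floor changed none of its own signals, only those of other probesets. The third Nid1 probeset read 10.4 to 18.5 in KO hearts and 26.6 to 68.6 in WT hearts, near background.

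The other probesets of the collagen chains varied. Col4a4 had a second probeset, at 42.8, 161.5, 198.0 and 249.4 in KO hearts and 261.2, 512.5, 377.8 and 544.0 in WT hearts. These groups did not overlap (log2 difference -1.58, exact permutation p 0.0286, limma adjusted p 0.187 trended), while in its dimmest probeset they did (-1.06, exact permutation p 0.257). The second Col4a3 probeset read 41.5, 15.8, 82.6 and 62.7 in KO hearts and 140.7, 129.4, 96.0 and 130.5 in WT hearts, again without overlap (-1.52, exact permutation p 0.0286, limma adjusted p 0.283 trended). Col4a1 was less clear in its dimmer probeset, which read 2904.5, 2939.8, 1587.8 and 2256.4 in KO hearts and 3068.3, 2236.1, 2694.8 and 3239.5 in WT hearts (-0.24, exact permutation p 0.371). The second probesets of Col4a5, Col4a6 and Lamc1 differed by -0.18, -0.77 and -0.19, and their groups overlapped.

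**Figure D3:**
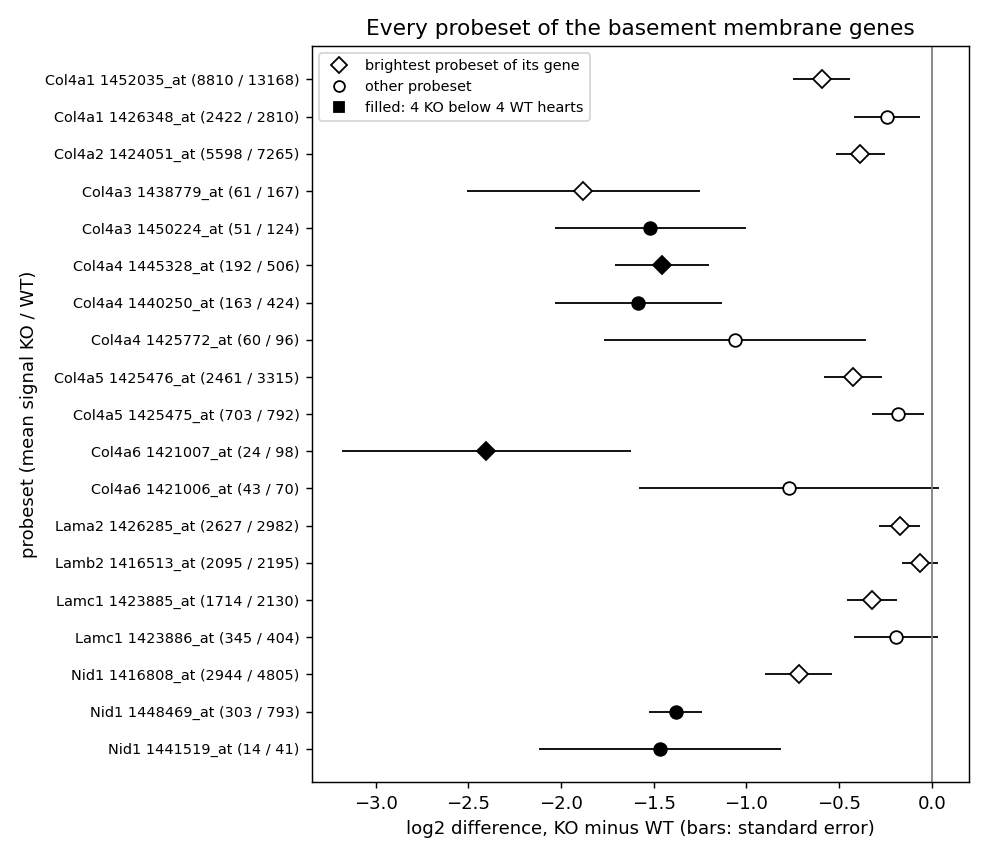
Log2 difference, KO minus WT, of each of the 19 probesets that read the members; diamonds are the brightest probeset of a gene, circles the others, filled symbols have all 4 KO hearts below all 4 WT hearts, and bars are the SE of the trended fit. All 19 lie below 0, and among the 6 filled symbols 2 belong to Col4a4 and 2 to Nid1.

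Other genes of the basement membrane mostly pointed the same way without passing the test. Of 7 other laminin chains measured, 6 averaged lower and 1 higher in KO hearts, with a median difference of -0.49 and none called in either fit. Among the lower ones, Lama3, Lamc3 and Lama1 were near background. Their means were 66.1, 33.1 and 3.0 in KO hearts and 89.8, 61.9 and 5.6 in WT hearts. Lama4, the laminin alpha chain of vessels, read 1288.6 to 1910.6 in KO hearts and 1952.5 to 2424.0 in WT hearts (-0.49, SE 0.16, limma adjusted p 0.421 common-variance and 0.133 trended). Lamb1 differed by -0.37 and Lamb3 by -0.77, and Lama5, the other vascular alpha chain, was the 1 above 0, at 0.32 (SE 0.21).

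Of 17 further components, 14 averaged lower (13 under either other scaling), with a median of -0.64, and in 5 all KO hearts lay below all WT hearts, against 3.72% of all genes, again with none called. Sparc, a matrix protein that binds collagen IV, was the brightest, at 10429 to 24137 in KO hearts and 23923 to 33014 in WT hearts (-0.87, SE 0.26, limma adjusted p 0.402 common-variance and 0.101 trended). Fbln1, fibulin-1, read 1642.5 to 1991.9 in KO hearts and 2228.5 to 2913.3 in WT hearts (-0.41, SE 0.13). Smoc2 differed by -0.64 and Ntn4, a netrin that binds laminin, by 0.30.

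Enzymes that fold, modify and cross-link collagen differed less. Of 17 measured, 16 averaged lower (11 under median centring), with a median of -0.21 and none called. P4hb, a subunit of prolyl 4-hydroxylase, read 5042.7 to 6606.9 in KO hearts and 6691.6 to 7659.5 in WT hearts, which did not overlap (-0.31, SE 0.12, limma adjusted p 0.467 common-variance and 0.182 trended). Pxdn, peroxidasin, which forms the sulfilimine bonds between collagen IV ends, read 1385.2 to 2428.9 in KO hearts and 2468.1 to 3181.0 in WT hearts (-0.57, SE 0.21, adjusted p 0.449 and 0.153). The collagen chaperone Serpinh1 differed by -0.34, the prolyl isomerase Ppib by -0.21, and Mia3, an export receptor for collagen, by 0.06.

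The receptors on the cell side had a median near 0. Of 16 integrin, dystroglycan complex and collagen receptor genes, 10 averaged lower and 6 higher, with a median of -0.08 and none called, and under median centring 5 were lower and the median was 0.07. In 1 of the 16, Utrn (-0.28, limma adjusted p 0.459 common-variance and 0.189 trended), all KO hearts lay below all WT hearts, against 3.72% of all genes. Itga6 was at -0.37 and the dim Itga2 at 1.61. Dag1, dystroglycan, read 11317 to 13100 in KO hearts and 9639.2 to 12752.5 in WT hearts (0.08, SE 0.13), and Sgcb, Ddr1 and Sgca differed by -0.12, -0.08 and 0.11. Of 12 proteases and inhibitors, 8 averaged lower (7 under median centring), against 53% of all genes, and 1, Mmp14, a membrane-bound matrix metalloproteinase, was called lower in the trended fit, against 0.258%. It read 579 ± 106 in KO hearts and 964 ± 65.3 in WT hearts (SD, n = 4 each), which did not overlap (-0.75, SE 0.16, limma adjusted p 0.307 common-variance and 0.0445 trended). Htra1, Timp3, Timp2 and Timp4, the brightest of that list, differed by -0.19, -0.09, -0.48 and 0.09.

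The collagens of the interstitium, which are not part of the basement membrane, were lower on average in all 11 genes measured, with a median of -0.71. Their summed signal was 26536 to 56102 in KO hearts and 55241 to 86489 in WT hearts. Col3a1 read 10567 to 24580 in KO hearts and 25648 to 43853 in WT hearts (-0.95, SE 0.29, limma adjusted p 0.402 common-variance and 0.101 trended), and Col1a2, Col6a2 and Col6a1 differed by -0.83, -0.42 and -0.41. None was called. Lower averages were thus also seen outside the basement membrane.

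Markers of the cells that make or rest on the membrane had unlike averages as well, but no endothelial or fibroblast marker was called in either fit. Of 12 endothelial markers 11 averaged lower (8 under median centring), with a median of -0.20 and a summed signal of 14916 to 19778 in KO hearts and 18708 to 22752 in WT hearts. Esam and Cdh5, the brightest, differed by -0.10 and -0.39. All 10 fibroblast markers averaged lower (8 under median centring), with a median of -0.52 and sums of 84111 to 106631 in KO hearts and 92047 to 150463 in WT hearts, although Gsn and Dcn, the brightest, each differed by -0.07. Of 10 mural cell markers 8 averaged lower (4 under median centring, where the median was 0.02), with a median of -0.13, but the sum was 72046 to 92333 in KO hearts and 64686 to 72067 in WT hearts. That sum was carried by Acta2, smooth muscle actin, called higher in the trended fit, as were 0.121% of all genes (0.74, limma adjusted p 0.0422 trended and 0.316 common-variance), beside Rgs5 at -0.06.

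Markers of heart chambers and immune cells also had unlike averages, but no macrophage, ventricular, Schwann cell or epicardial marker was called in either fit. All 10 macrophage markers averaged lower, 9 under either other scaling (sums 16310 to 20117 in KO hearts and 21255 to 27199 in WT hearts), led in brightness by Csf1r (-0.37) and Lyz2 (-0.36). In 4 of these 10 markers all KO hearts lay below all WT hearts, against 3.72% of all genes. All 10 ventricular myocyte markers averaged higher, with a median of 0.19, or 6 with a median of 0.001 after quantile normalization. Their sums were 617818 to 791747 in KO hearts and 516666 to 694123 in WT hearts. Myh6 and Tnnt2, the brightest, differed by 0.21 each. All 8 atrial markers measured averaged lower, with a median of -1.88 and sums of 20720 to 207363 in KO hearts and 171307 to 280223 in WT hearts, led by Nppa (-1.09) and Myl7 (-2.36). Of these Pam (-1.63) and Nr2f2 (-1.16) were called lower in the trended fit (limma adjusted p 0.0367 each), against 0.258% of all genes. In 4 of the 8 atrial markers all KO hearts lay below all WT hearts, again against 3.72%. Of 5 Schwann cell markers 5 averaged lower, led by Kcna1 (-1.15) and Mbp (-0.42), and of 8 epicardial markers 6, led by Upk3b (-0.73) and Lrrn4 (-0.63). Of 6 adipocyte markers 5 averaged higher, Adipoq at 0.52 and Fabp4, the brightest, at -0.09. Adipoq read 282.5, 686.0, 472.5 and 1412.2 in KO hearts, against 309.2 to 646.1 in WT hearts, so KO replicate 4 raised its average most. Of 9 skeletal muscle markers 6 averaged lower, among them Acta1 (-1.37) and Tnni2 (-2.10, called in the trended fit, limma adjusted p 0.0367), while Ckm was at 0.22. The other lower ones, Myh4, Myh1, Tnnc2 and Tnnt3, averaged under 50 in both genotypes. Acta1 and Ckm averaged 23236 and 47156 in WT hearts, so the list does not read skeletal muscle alone.

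The order of single hearts can be set beside these lists. As a mean over markers, relative to the WT mean, fibroblast markers were at -0.67, -0.54, -0.72 and -0.00 in KO replicates 1 to 4. Interstitial collagens were at -0.94, -0.68, -1.29 and -0.10. KO replicate 4 lay nearest WT in both, as for most members. It was also nearest for endothelial markers (-0.31, -0.15, -0.52 and -0.07) and other basement membrane components (-0.59, -0.66, -0.90 and -0.14). It was not for mural cell markers (-0.66, 0.03, -0.62 and 0.38) or other laminin chains (-0.58, -1.03, -0.28 and -0.34). Further lists went either way. Adipocyte markers were at 0.03, 0.51, 0.10 and 1.53, highest in KO replicate 4. One of them, Ucp1, read 672.2 in that heart, against 6.0 to 38.6 in the other KO hearts and 10.0 to 112.1 in WT hearts. Atrial markers were at -0.27, -1.68, -3.36 and -1.73 in KO replicates 1 to 4, against -0.25, 0.37, 0.19 and -0.32 in WT replicates 1 to 4. Without Bmp10, which is near background, they were at -0.51 in KO replicate 1, against -0.41 in the lowest WT heart, and in KO replicate 1 the signals of Pam, Sln, Dkk3 and Nr2f2, 4 of the 8 markers, were below every WT heart. In each of the other KO hearts 7 of the 8 were. The part of these lists in the differences of the members was not tested.

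**Figure D4:**
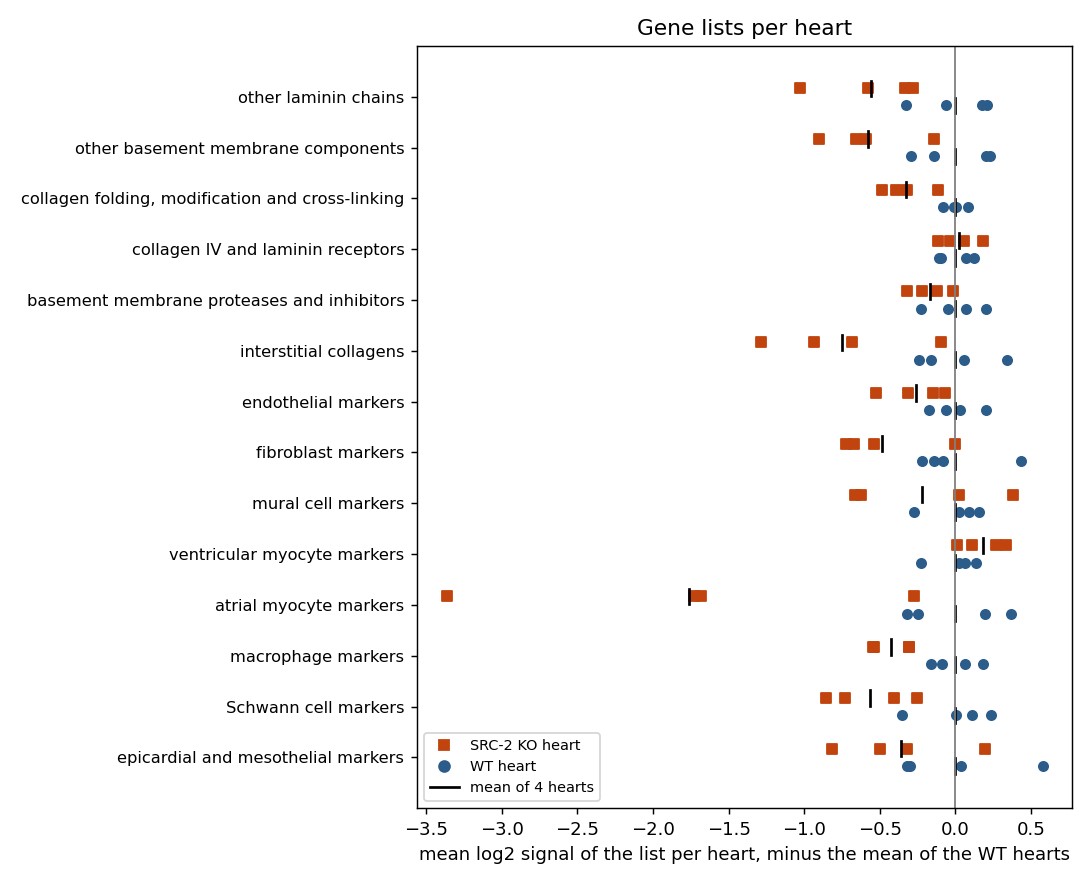
Mean log2 signal of 14 gene lists in each heart, relative to the mean of the WT hearts, with KO hearts as squares above WT hearts as circles. The adipocyte and skeletal muscle lists are not drawn. KO replicate 4 lies near the WT hearts for fibroblast markers (-0.00), endothelial markers (-0.07) and interstitial collagens (-0.10), among others. KO replicate 3 lies lowest for atrial markers (-3.36).

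The genes whose pattern over the 8 hearts was nearest to Col4a1 were sought among the 9095 genes brighter than the median gene, by the root mean square difference of log2 signals after each gene's own mean was taken off. The nearest was Cd93, at 0.06 log2 units, followed by Serinc5 at 0.10 and by Ppm1h, Pxdn and Adam10 at 0.12 each. Col4a2 was in place 21, at 0.15, Lamc1 in place 116 (0.19), Nid1 in place 183 (0.21) and Col4a5 in place 210 (0.22), while Lama2 and Lamb2 were in places 809 and 2617. The difference of KO from WT hearts is part of each pattern and the arrays share a scaling, so these distances describe likeness only.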

How the data were processed

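RNA from whole hearts of 4 SRC-2 KO and 4 WT mice was measured on 8 arrays. The authors' table holds 1 linear intensity for each of 45101 probesets, from 0.219 to 124739, already scaled to a trimmed mean of 500 (2% of probesets taken off at each end). Per the submitters' processing notes, RMA, Partek and Affymetrix Expression Console were used. The methods describe RMA values, but the deposited intensities are linear and share a trimmed mean of 500, so they may not be RMA values. Which method made them was not settled. Their log2 was taken without a floor or other scaling. The methods give the age as a wider range than the labels. The number of arrays limits the precision.

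Probesets were named through the platform annotation. Of 45101, 64 were controls, 9211 were not listed in it, 932 had several symbols and 34945 with 1 symbol were used. The brightest probeset by its mean over 8 arrays stood for each of 18193 genes, and 18032 had a symbol that is current in RefSeq (GRCm38.p6).

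Genotypes came from the labels. KO was compared with WT in limma 3.58.1 (R 4.3.3), by lmFit and eBayes, two-sided, with Benjamini-Hochberg adjustment over all genes at 0.05. Differences of changes were fitted on log2 signal minus that of the gene set against, and single probesets were also tested by exact permutation of the 8 arrays. The fits were tested on simulated data. The members and gene lists were chosen with earlier results of these data known. Named genes were the members, Ncoa2, the 4 brightest of each pathway list, the 2 brightest of each marker list, list members called in either fit, and the 5 genes nearest to Col4a1. Pxdn, Sln, Dkk3, Bmp10, Adipoq, Ucp1, Utrn, Itga6, Itga2, Lama1, Lama3, Lamc3 and the dim skeletal muscle genes are named for their values or roles.

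The alternatives were the trended prior, a random variance model test, a replicate block, the mean of all probesets and removal of probesets named with _s, _x or _a. Further ones were a filter on dim genes, a floor of 50, median centring, quantile normalization and leaving out each array. The tests of single probesets in limma, the joint use of the trended prior with other alternatives, and Col4a4 against Col4a3 and Col4a6 against Col4a5 were added after the values were seen. The quantitative PCR and aortic banding experiments were not analysed here. Promoter windows and figures were made with Python 3.11.15 and matplotlib 3.10.9.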

Additional observations from a re-analysis of the deposited data

Results flagged for a closer look

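Nid1 in KO hearts was marked for 1 heart far from the others: KO replicate 4 read 4200, against 2401.1 to 2634.4 in the other KO hearts. The gap to its nearest neighbour was 0.834 of the range of the 4 hearts. There were 20 such groups tested, and chance marks about 1 in 20.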

How the results depend on the processing

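All members except Lamb2 kept the lower average in KO hearts in each alternative that was run. Lamb2 was at 0.0891 under median centring and between -0.11 and 0.00289 when 1 heart was left out, above 0 without WT replicate 3. With all genes, 3 were called lower and 1 higher, 47 and 22 with the trended prior, 0 and 0 with the replicate block, 1 and 0 with the mean of all probesets, 19 and 4 among genes above the median signal, 2 and 0 with signals under 50 set to 50, and 2 and 0 with median centring. With the trended prior added to another choice, the counts were 2 and 0 (floor of 50), 56 and 29 (above the median signal), 31 and 18 (quantile normalization), 47 and 25 (replicate block) and 12 and 3 (mean of all probesets).

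Leaving out 1 heart gave 1 to 5 genes lower and 0 to 1 higher, with 0 to 0 members called. In the trended fit it gave 3 to 218 lower and 2 to 104 higher, with 0 to 3 members, the fewest genes without WT replicate 2 and the most without KO replicate 4.

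The member called in the trended fit depended on the setting. With the trended prior it was 1 of 10, Col4a4 (adjusted p 0.0367, and 0.0307 above the median signal), but 1 of 10 with the replicate block was Col4a1 (0.046, Col4a4 0.0516), and 1 of 10 with the mean of all probesets was Nid1 (-1.19, 0.0278). Col4a4 was not called with the floor of 50 (0.206) or quantile normalization (0.0584). The floor changed none of the Col4a4 signals, the lowest of which was 104.8, only those of other genes. Ncoa2 kept its sign throughout, with adjusted p of 0.258 under the replicate block and 0.478 for the mean of its probesets (-1.30). For the replicate block, same-numbered arrays share only a number: they did not deviate together (r of 0.06, -0.07, -0.03 and 0.14), and 2 of 4 correlated best with their own.

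The gap of Col4a4 to Col4a1, -0.86, passed with the trended prior (0.0464), with the floor (0.0359) and with both (0.0339), and its gap to Col4a2, -1.07, with both (0.0302). Without the floor, the trended fit called 14.9% of all genes against Col4a1 and 0.434% against Col4a2. The shares of all genes called under the floor were not counted, so these passes do not single out Col4a4. Without 1 heart the gaps to Col4a1 ran from -1.69 to -0.68 (Col4a3), -0.96 to -0.71 (Col4a4), 0.10 to 0.31 (Col4a5) and -2.34 to -1.33 (Col4a6). Those to Col4a2 ran from -1.95 to -0.90 (Col4a3), -1.16 to -0.91 (Col4a4), -0.12 to 0.13 (Col4a5) and -2.48 to -1.53 (Col4a6). The gap of Col4a5 to Col4a2 was 0.0826 with the mean of all probesets. The cause of these shifts was not tested. Col4a3 and Col4a6 have signals close to background, which limits their precision.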

Other observations

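The gene nearest to Col4a4 over the 8 hearts, sought after its values were seen, was 2010315B03Rik at 0.24 log2 units, followed by Nr2f2 (0.25), a transcription factor of atria and veins, Rgs7 (0.27), Gucy1a1 (0.28), a subunit of the nitric oxide receptor, Comp (0.31) and Eln (0.32), the gene of elastin. In these 6 genes the KO average was lower, by log2 differences of -1.52, -1.16, -1.45, -1.77, -1.08 and -1.29 in the same order. They were picked by their likeness, so their differences are not separate evidence on Col4a4.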
